A study of Arabidopsis thaliana with 8 samples.

Results

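The transcripts of 9 genes, lipoxygenases and enzymes of jasmonate synthesis, were followed in roots and flower buds of Arabidopsis thaliana. They are the 6 lipoxygenase genes LOX1 (AT1G55020), LOX2 (AT3G45140), LOX3 (AT1G17420), LOX4 (AT1G72520), LOX5 (AT3G22400) and LOX6 (AT1G67560), the allene oxide synthase gene AOS (AT5G42650), the oxophytodienoate reductase gene OPR3 (AT2G06050) and the lipase gene DAD1 (AT2G44810). They were selected by locus and make up 9 of the 25383 loci with a probe on the array. Where a locus had several probes, the probe with the highest mean signal stood for it.

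Jasmonates are lipid hormones made from linolenic acid. A lipase such as DAD1 frees the fatty acid in the plastid, 13-lipoxygenases add oxygen to it, AOS turns the product into an allene oxide, an allene oxide cyclase closes the ring, and OPR3 reduces the ring in the peroxisome before the side chain is shortened. The 9-lipoxygenases add oxygen at another carbon and feed other oxylipins. In leaves jasmonate is known as a wound and defence signal, and in flowers it is needed for filament elongation, opening of the anthers and pollen maturation, so that loss of DAD1, AOS or OPR3, or of LOX3 and LOX4 together, leaves plants male sterile.

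All plants were of the accession Col-0 (written col 0 in the labels), raised in hydroponics to an age of 6 weeks, with no mutation or treatment named for either tissue. Roots formed 1 group and flower buds the other, with 4 arrays each, and each array carried RNA pooled from 8 to 10 plants. The labels do not give the stage of the buds or name any dissection, and a flower bud holds sepals, petals, stamens and carpels. The arrays are called root 1 to root 4 and bud 1 to bud 4 after the replicate numbers of the labels.

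The level of a transcript is given as the log2 of its processed fluorescence signal minus that of the array's 75th percentile, so that a level of 0 equals the 75th percentile. A difference is the flower bud level minus the root level, with the standard error of the limma fit and 4 arrays per tissue. A probe is called detected on an array where the scanner software had flagged it as well above background. The lowest detected signal was 16.2, 46.8, 59.6 and 19.5 on roots 1 to 4 and 16.0 to 19.4 on the flower bud arrays. An equal dim signal could thus be detected on roots 1 and 4 and not on roots 2 and 3. Genes detected throughout at least 1 tissue were tested, and a gene was called at a Benjamini-Hochberg adjusted p under 0.05 together with a difference of 2-fold or more. Of the 9 genes 8 were tested, with 3 called higher in flower buds, 2 in roots and 3 not called. Of all 22197 genes tested, 55.0% were called, 29.8% towards flower buds and 25.3% towards roots. Of the calls 54.1% were towards flower buds, a share that was 68.2% with scaling on reference genes and 48.6% under normexp background correction. A call is thus the more frequent outcome for any gene in this comparison, and the counts among the 9 genes do not set them apart. The median difference was 0.19 over the 8 genes and 0.12 over all genes tested. For 79.2% of all genes tested the levels of the tissues did not overlap, so separation is the more frequent outcome too.

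Across genes, Pearson's r between arrays lay from 0.971 to 0.993 for arrays of the same tissue and from 0.474 to 0.522 for arrays of different tissues. The 75th percentile of the signal lay between 2218 and 3132 on the root arrays and between 4149 and 4257 on the flower bud arrays. The labelled tissues were checked against marker lists, whose summed level is the sum of the linear signals divided by the 75th percentile. The 8 root markers summed to 325 to 357 in roots and 0.242 to 0.398 in flower buds, and the 8 stamen and pollen markers to 45.5 to 67.5 in flower buds and 0.0258 to 0.0472 in roots. The slide held the root arrays in row 1 and the bud arrays in row 2, and an effect of the row and one of the tissue cannot be told apart. Because RNA came from mixed tissue, fewer cells of a type and less RNA per cell cannot be told apart for any gene below.

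**Figure D1:**
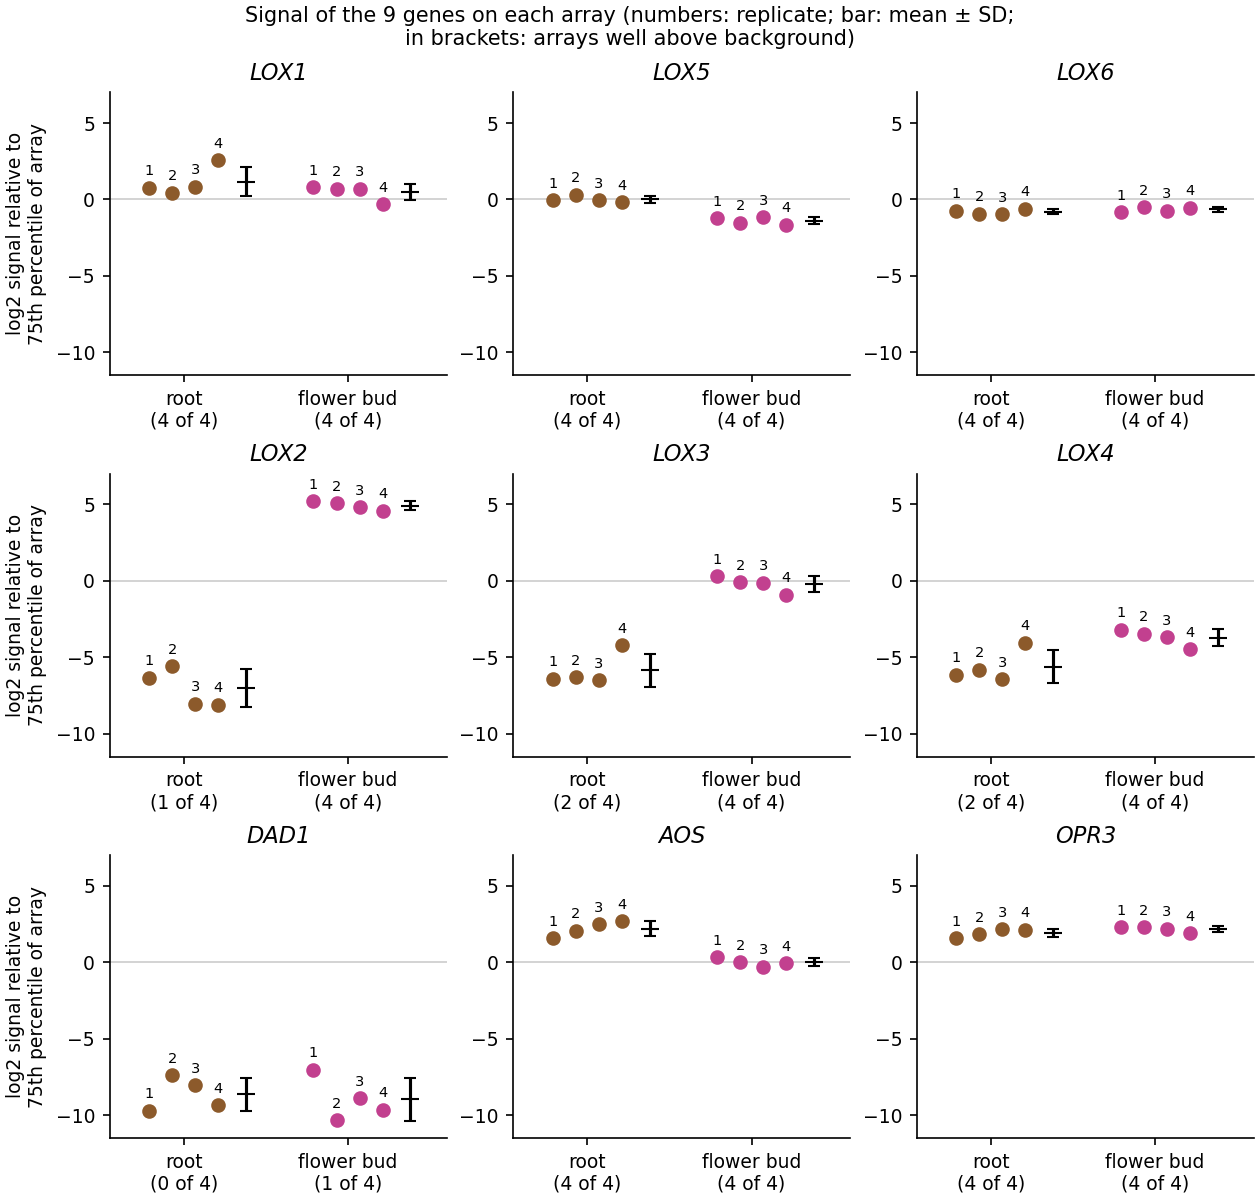
Level of each of the 9 genes on every array, in log2 units relative to the array's 75th percentile, with root arrays in brown, flower bud arrays in magenta, replicate numbers above the points, and the mean and SD of 4 arrays as a bar. LOX2 spans the widest range, from -8.10 in a root to 5.22 in a flower bud, LOX6 and OPR3 lie at nearly the same level in both tissues, and DAD1 was detected on 1 of the 8 arrays.

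DAD1, the phospholipase that starts jasmonate synthesis in stamens, was at the edge of detection. Its linear signal was 3.7, 13.1, 11.9 and 4.1 on roots 1 to 4 and 31.9, 3.30, 8.80 and 5.30 on buds 1 to 4. Of these arrays bud 1 alone detected it, so DAD1 failed the filter and no difference was tested. The values of the other 7 arrays have no order. Stamen and pollen markers were detected in 8 of 8 cases on every flower bud array, in the same RNA in which DAD1 was this dim. DAD1 had 1 probe, so a scarce transcript and a weakly binding probe cannot be told apart.

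LOX2, the plastid 13-lipoxygenase that supplies most of the jasmonate of wounded leaves, had the largest difference of the 8 tested genes. Its level was 5.22, 5.07, 4.80 and 4.58 on buds 1 to 4, and -6.32, -5.60, -8.04 and -8.10 on roots 1 to 4. The flower bud values were close together and far above the 75th percentile, whereas the root values were spread over more than 2 log2 units at the bottom of the range. Among the roots it was detected in root 1 alone, and root 3 held for LOX2 the same value as for DAD1. Root 2 did not detect it at a linear signal of 45.8, against 38.5 in root 1, since the lowest detected signal was higher on root 2. The fitted difference was 11.93 ± 0.56 with a limma adjusted p of 2.31e-07, and it rests on root signal that was mostly not detected. In linear signal LOX2 reached 102089 to 155337 in flower buds against 9.80 to 45.8 in roots.

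LOX2 was covered by 4 probes. The other 3 were detected on every flower bud array and on no root array. They gave flower bud signals at least 24.2-fold, 110-fold and 69.4-fold higher, where the bound takes for each root array the probe's own signal or the lowest signal of any detected probe, whichever is higher. Such bounds, here and below, hold for the processed signal and can be undercut under another background correction. All 4 probes were called in the same direction, with fitted differences between 6.26 and 11.93, and the mean over the probes of the locus differed by 8.89. Background correction by normexp gave 9.70.

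Markers of green tissue moved with LOX2. The 8 of them summed to 595 to 649 in flower buds and 4.95 to 6.80 in roots, and all 8 were called higher in flower buds. In roots 7 of the 8 were detected on every array, and PRK, the phosphoribulokinase of the Calvin cycle, on none. The part of green cells in the LOX2 difference was not tested.

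LOX3 and LOX4 are plastid 13-lipoxygenases that act together in male fertility. LOX3 had levels of 0.31, -0.09, -0.12 and -0.90 on buds 1 to 4 and of -6.39, -6.30, -6.50 and -4.21 on roots 1 to 4. The tissues did not overlap, as held for 79.2% of all genes tested. Root 4 stood above the other roots and bud 4 below the other buds. LOX3 was detected in roots 1 and 4 alone. The difference was 5.65 ± 0.53 (limma adjusted p = 1.61e-05), and it was 6.20 without root 4. The other 3 LOX3 probes were detected on no root array and gave flower bud signals at least 8.96-fold, 2.1-fold and 15.2-fold higher. Among the roots, none of them was highest in root 4.

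LOX4 was dim in both tissues. Its levels were -3.21, -3.47, -3.68 and -4.47 on buds 1 to 4 and -6.14, -5.82, -6.44 and -4.04 on roots 1 to 4. Root 4 lay above bud 4, so the tissues overlapped. As for LOX3, roots 1 and 4 were the root arrays that detected it. Its linear signal was 43.6, 39.4, 36.1 and 163.8 on roots 1 to 4, where the lowest detected signal was 16.2, 46.8, 59.6 and 19.5. The difference of 1.90 ± 0.53 was called (limma adjusted p = 0.0095), and it was 2.42 without root 4. Under normexp background correction it was 0.75 and was no longer called. LOX4 had 1 probe.

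LOX6, the 13-lipoxygenase known for stress-induced jasmonate synthesis in roots, was measured at nearly the same level in both. The levels were -0.73, -0.94, -0.97 and -0.62 on roots 1 to 4 and -0.84, -0.50, -0.73 and -0.54 on buds 1 to 4. The tissues overlapped, and LOX6 was detected on all 8 arrays. Its difference was 0.16 ± 0.12 (limma adjusted p = 0.249), with a 95% interval of -0.12 to 0.44. That interval lies within 2-fold in either direction on this scale.

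LOX1 and LOX5 encode 9-lipoxygenases, which act in lateral root development and defence. LOX5 had levels of -0.04, 0.32, -0.05 and -0.19 on roots 1 to 4 and of -1.24, -1.53, -1.17 and -1.66 on buds 1 to 4. Every root array lay above every flower bud array, and 79.2% of all genes tested had no overlap in 1 direction or the other. The difference was -1.41 ± 0.15 (limma adjusted p = 4.24e-05), and the second LOX5 probe gave -1.22 ± 0.16. Scaled on reference genes in place of the 75th percentile, LOX5 differed by -0.87, which is under 2-fold and was not called.

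LOX1 had levels of 0.76, 0.45, 0.84 and 2.56 on roots 1 to 4 and of 0.81, 0.71, 0.69 and -0.30 on buds 1 to 4. Roots 1 to 3 and buds 1 to 3 covered nearly the same range, while root 4 was the highest of all 8 arrays and bud 4 the lowest. The difference of -0.67 ± 0.48 was not called (limma adjusted p = 0.218, 95% interval -1.78 to 0.43). It was -0.20 without root 4 and -0.42 without bud 4. LOX1 had 1 probe, as had LOX6 and AOS.

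AOS, the plastid cytochrome P450 that commits 13-lipoxygenase products to jasmonate, was higher in roots. Its levels were 1.58, 2.05, 2.49 and 2.69 on roots 1 to 4 and 0.33, 0.02, -0.29 and -0.05 on buds 1 to 4. No root array fell as low as the highest flower bud array, where 79.2% of all genes tested had no overlap. AOS was detected on all 8 arrays. The difference was -2.20 ± 0.25 (limma adjusted p = 5.44e-05). Among the 13-lipoxygenases, which act in the step before it, LOX2, LOX3 and LOX4 were called in the opposite direction and LOX6 was not called. The AOS difference stayed called under every scaling tried, at -1.66 with reference genes and -2.33 with array medians.

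OPR3, the peroxisomal reductase that acts on the cyclised product, was high in both tissues. Its levels were 1.57, 1.84, 2.18 and 2.13 on roots 1 to 4 and 2.28, 2.28, 2.18 and 1.89 on buds 1 to 4. The tissues overlapped, and the difference was 0.23 ± 0.16 (limma adjusted p = 0.214, 95% interval -0.14 to 0.61). The second OPR3 probe gave 0.26 ± 0.14 and was not called.

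Whether related lipoxygenase genes differ in how much they change between tissues was tested on the log2 ratio of their probes within each array. Such a ratio says nothing of which transcript is more abundant, since probes bind unequally, but its change from roots to flower buds shows unequal change. The test was a two-sided exact permutation test of 4 arrays against 4, whose smallest possible p is 0.0286, adjusted over 7 pairs. LOX2 was detected in root 1 alone and LOX3 and LOX4 in roots 1 and 4 alone, so many root ratios with these genes rest on signal that was not detected.

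LOX6 was detected on every array, and ratios over it have 1 dim side at most. LOX2 over LOX6 was 5.13 to 6.05 in flower buds and -7.48 to -4.66 in roots, and LOX3 over LOX6 was -0.36 to 1.15 in flower buds and -5.67 to -3.59 in roots. In both pairs the 4 flower bud ratios lay above the 4 root ratios (exact permutation, adjusted p = 0.0400, from the smallest p possible). LOX2 and LOX3 passed the filter through the flower buds, where they are high, and LOX6 differed little. These ratios therefore restate the differences of LOX2 and LOX3, and the p adds no separate support. The sizes of these shifts, 11.77 and 5.49, depend on the dim root signal, and with the mean over all probes of a locus they were 8.73 and 4.62. LOX4 over LOX6 was 1.74 higher in flower buds (95% interval 0.34 to 3.15, exact permutation adjusted p = 0.0667), with root 4 among the flower bud values, and 0.60 higher under normexp. LOX4 too passed the filter through the flower buds, so this ratio restates its difference and adds no separate support. LOX1 and LOX5 were both detected on every array, and LOX1 over LOX5 was 0.73 higher (95% interval -0.72 to 2.19, exact permutation adjusted p = 0.286), a wide interval for the 9-lipoxygenases. That change was 1.27 without root 4.

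The ratios among LOX2, LOX3 and LOX4 are given as a description, since both probes of a pair were dim in roots. LOX3 over LOX4 was 3.52, 3.38, 3.57 and 3.56 on buds 1 to 4, where both were detected throughout. It was -0.25 and -0.16 on roots 1 and 4, the roots that detected both, and -0.48 and -0.06 on roots 2 and 3, which detected neither. LOX2 over LOX3 was 4.90 to 5.49 in flower buds and 0.07 in root 1, and LOX2 over LOX4 was 8.43 to 9.05 in flower buds and -0.18 in root 1, the root that detected all of them. The sequences of these probes were not used here, and binding of 1 transcript to the probe of its close relative was not tested.

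**Figure D2:**
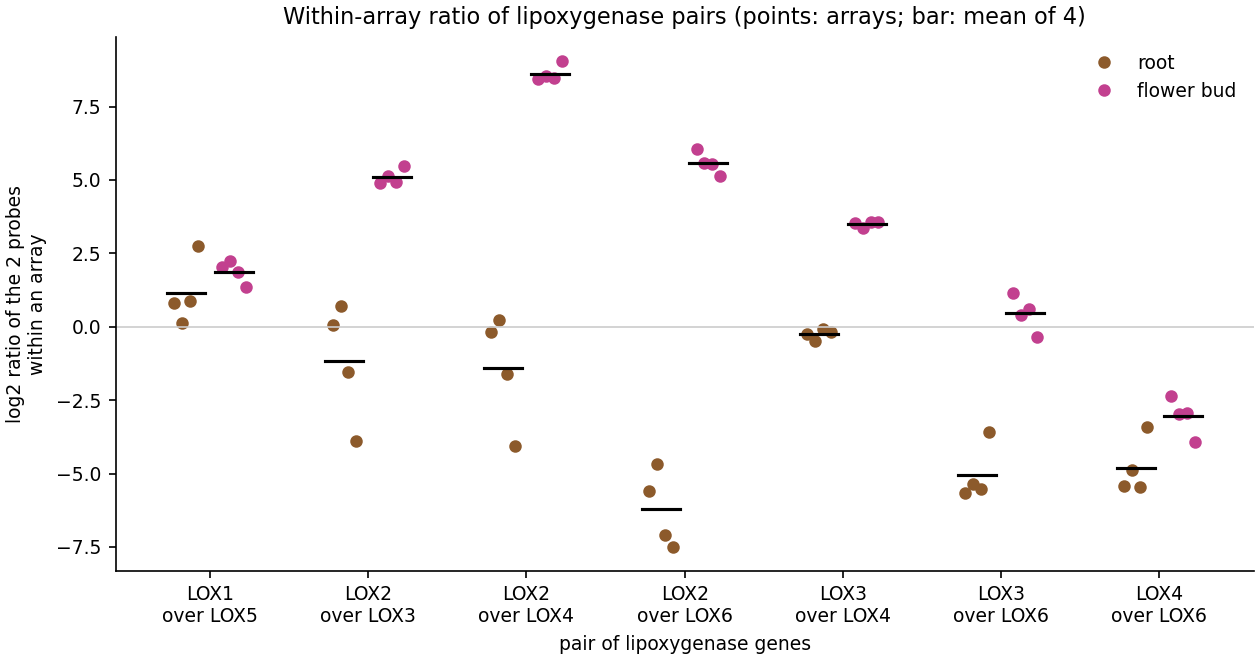
Log2 ratio of the probes of 2 lipoxygenase genes within each array, for 7 pairs, with root arrays in brown, flower bud arrays in magenta and a bar at the mean of 4 arrays. For 5 pairs all flower bud points lie above all root points, and the tissues overlap for LOX1 over LOX5 and LOX4 over LOX6. Levels of single genes did not overlap between tissues for 79.2% of all genes tested. In roots LOX2 was detected on 1 of 4 arrays and LOX3 and LOX4 on 2 of 4, so brown points of their pairs rest in part on signal that was not detected.

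The genes also varied between arrays of the same tissue. The SD among roots was 0.96 for LOX1, 1.1 for LOX3 and 1.08 for LOX4, larger than that of 96.3%, 97.6% and 97.5% of all tested genes. LOX1 was detected on all 4 roots, but LOX3 and LOX4 on 2 of 4, so their SDs rest in part on signal that was not detected. LOX2 had an SD of 1.26 among roots, with 1 of 4 root arrays detecting it. For LOX6 it was 0.17 and for LOX5 0.22, larger than that of 36.3% and 51.6% of all tested genes. Root 4 stood above its tissue mean by 1.41 for LOX1, 1.64 for LOX3 and 1.57 for LOX4, and for AOS by 0.49. The LOX3 value is that of the chosen probe. The other LOX3 probes, detected on no root array, stood at -7.95, -8.73 and -8.70 in root 4, and none was highest there. Bud 4 deviated from its tissue mean by -0.78 for LOX1, -0.70 for LOX3 and -0.76 for LOX4.

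These replicates were singled out after their values were seen, so the counts are a description. Root 4 was the highest root array for 5 of the 8 tested genes and for 25.0% of all tested genes with a value on every array. It was 2-fold or more above the mean of the other roots for 3 of the 8 and for 3.46% of all genes. Among 9 genes of jasmonate catabolism the same held for 7, and among 15 genes of perception and JAZ repressors for 6. Bud 4 was the lowest flower bud array for 6 of the 8 and for 33.1% of all genes.

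Touch and wound genes varied in part alongside. The 7 genes of that list summed to 10.3, 12.7, 34.0 and 28.1 on roots 1 to 4 and to 5.05, 3.56, 3.87 and 1.82 on buds 1 to 4, and all 7 were detected on each array. Roots 3 and 4 were both high for this list, whereas LOX1, LOX3 and LOX4 were high in root 4 alone. AOS deviated from its root mean by -0.62, -0.15, 0.29 and 0.49 on roots 1 to 4, and OPR3 by -0.36, -0.09, 0.25 and 0.20. These genes were thus above their mean in roots 3 and 4, as the list was, whereas LOX2, LOX5 and LOX6 were not above theirs in both. Among flower buds, bud 4 was the lowest for the list and for LOX1, LOX3 and LOX4. The part of handling at harvest in the spread of the lipoxygenase genes was not tested.

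**Figure D3:**
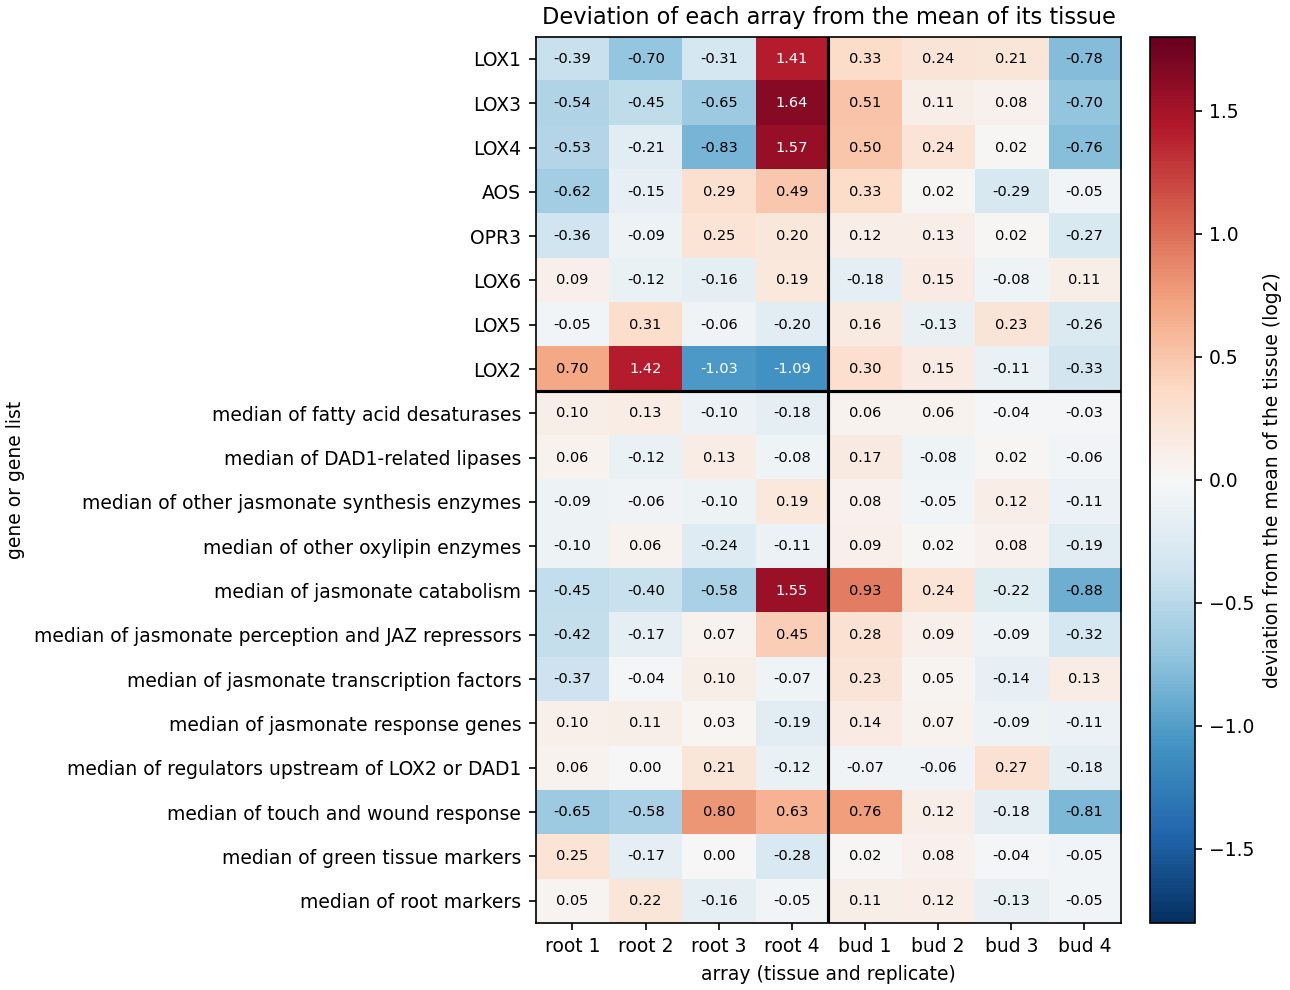
Deviation of each array from the mean of its tissue in log2 units, for the 8 tested genes (upper block) and the median over gene lists (lower block), in red above and in blue below the tissue mean. Root 4 is red for LOX1, LOX3, LOX4 and the jasmonate catabolism list (1.55), while the touch and wound list is red in roots 3 (0.80) and 4 (0.63).

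The steps before the lipoxygenases were represented by fatty acid desaturases. Of 4 genes, 2 passed the call towards flower buds and the other 2 did not, where 29.8% of all genes tested passed it. The list median was 2.13 against 0.12 over all tested genes. FAD7 and FAD8, the plastid desaturases that make linolenic acid, were the 2 that were higher. FAD8 rose from a mean level of -3.81 in roots to 0.73 in flower buds (4.54 ± 0.17) and FAD7 from -1.62 to 1.76 (3.38 ± 0.08). FAD3, which makes linolenic acid in the endoplasmic reticulum, differed by 0.88 ± 0.18, under 2-fold, and FAD2, which acts before it, by -0.09 ± 0.12. FAD3 was called higher in flower buds without root 2 (1.02), with quantile normalization (1.05) and on reference genes (1.42). The FAD2 difference turned to 0.45 on reference genes and 0.02 with quantile normalization, and was not called.

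Relatives of DAD1 fell on both sides, where 29.8% of all genes tested were called towards flower buds and 25.3% towards roots. Of 6 genes 4 were tested, of which DALL2 was higher in flower buds (1.70 ± 0.19), DALL4 (-1.58 ± 0.15) and DALL3 (-1.22 ± 0.11) were higher in roots, and DALL1 was not called (-0.46 ± 0.26, and 0.08 on reference genes). DGL and DALL5 were detected on no array. With scaling on reference genes the difference of DALL3 was -0.68 and not called.

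After AOS the pathway continues with allene oxide cyclases, of which the list held 4. Of 15 other synthesis genes 3 were called towards flower buds, 4 towards roots and 8 not at all, with a median of -0.09. The shares over all genes tested were 29.8% towards flower buds and 25.3% towards roots. AOC3 was higher in roots at levels of -1.36, -1.61, -1.01 and -1.58 in roots 1 to 4, against -4.25, -4.68, -3.94 and -4.15 in buds 1 to 4 (-2.86 ± 0.19). AOC1 and AOC2 were detected on no root array and were at least 16.3-fold and 2.34-fold higher in flower buds. Under normexp the difference of AOC2 was 0.56, less than its bound on the processed signal (1.23 in log2), and was not called. AOC4, named after its values were seen, was detected on all 8 arrays and was not called, with mean levels of 2.01 in roots and 2.74 in flower buds (0.73 ± 0.12, limma adjusted p = 4.43e-04, under 2-fold). Scaled on reference genes it differed by 1.27 and was called higher in flower buds. These cyclase genes are close relatives, and binding across their probes was not tested.

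Enzymes that modify the product also differed. JMT, which makes the volatile methyl jasmonate, differed by 6.49 ± 0.21 (limma adjusted p = 2.55e-08) and was detected in 2 of 4 roots. JAR1, which joins jasmonate to isoleucine to form the active hormone, differed by -1.10 ± 0.10 and OPR2, a relative of OPR3, by -2.10 ± 0.15, both higher in roots. The JAR1 difference was -0.56 with scaling on reference genes and -0.88 with quantile normalization, and it fell short of 2-fold under normexp as well.

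Genes listed for enzymes of other oxylipins were called in 3 of 3 cases, where 55.0% of all genes tested were called. HPL1, a hydroperoxide lyase gene, had a flower bud signal at least 424-fold higher. Its levels were 2.28, 2.32, 2.15 and 2.21 on buds 1 to 4, and it was detected on no root array. Whether this transcript yields an active enzyme in these plants was not tested. ALPHA DOX2, an alpha-dioxygenase gene, was higher in flower buds by 2.33 ± 0.14. DOX1, its relative, was higher in roots (-7.07 ± 1.29), and its flower bud levels of -3.95, -7.11, -3.53 and -9.80 spread widely, with detection in 3 of the 4.

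**Figure D4:**
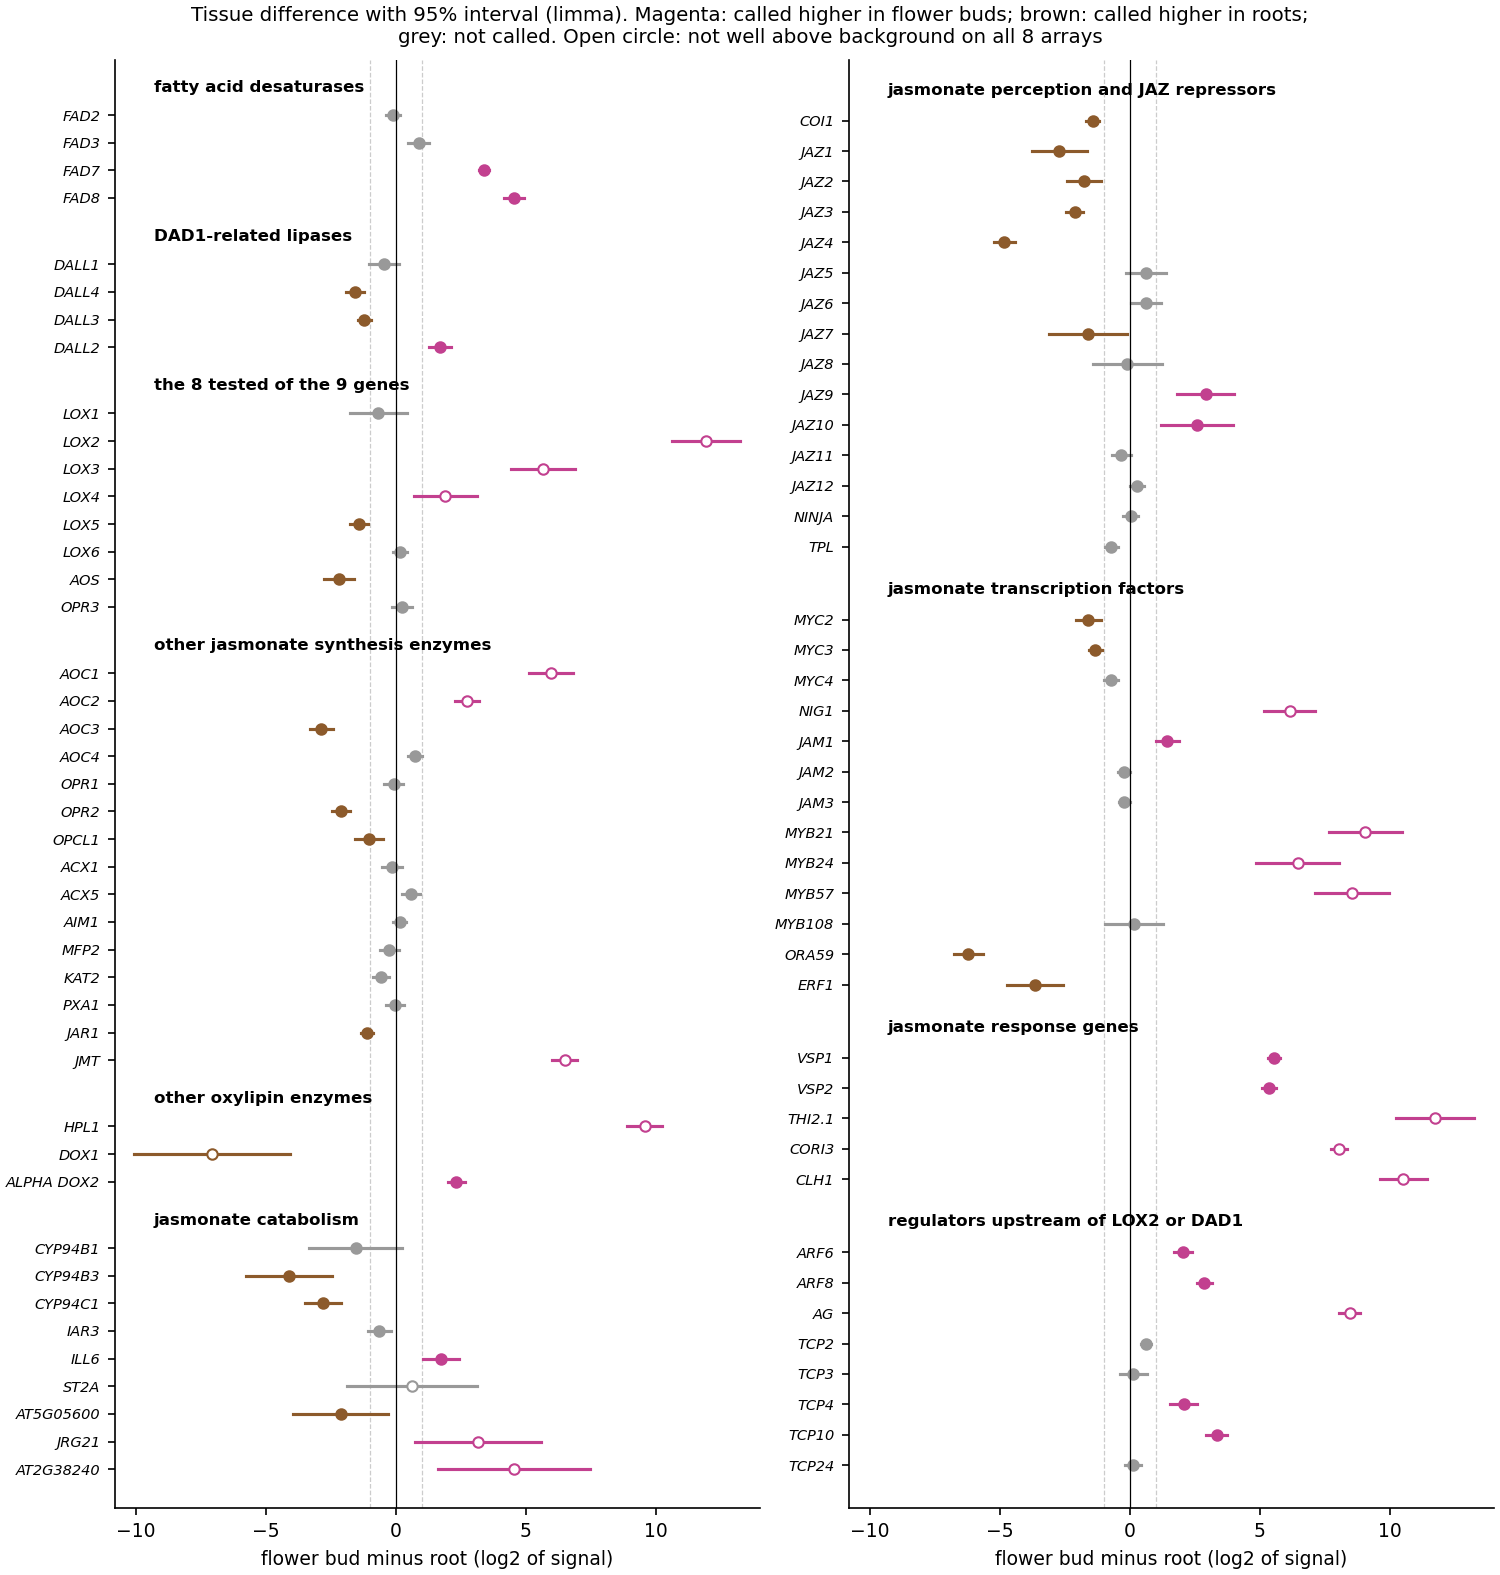
Flower bud minus root difference in log2 units with its 95% limma interval, for the 8 tested members and 76 further genes of the jasmonate pathway in 9 lists. Magenta marks genes called higher in flower buds, brown those called higher in roots and grey those not called, and open circles mark genes not detected on all 8 arrays. Magenta and brown points occur together in most lists, while the fatty acid desaturases, the response genes and the regulators of LOX2 or DAD1 show no brown point.

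Genes of jasmonate catabolism included 7 that stood 2-fold or more above the other roots in root 4, as LOX3 and LOX4 did. Of 10 genes 9 were tested, with 3 called towards flower buds, 3 towards roots and 3 not called. Among all genes tested 29.8% and 25.3% were called in these directions. CYP94B3, a P450 that hydroxylates the active hormone, had levels of -2.72, -2.41, -2.75 and 0.35 on roots 1 to 4 and of -5.06, -5.88, -6.31 and -6.68 on buds 1 to 4 (-4.10 ± 0.72). CYP94C1, which oxidises it further, differed by -2.81 ± 0.30 and was not high in root 4. ILL6, an amidohydrolase of the hormone conjugate, differed by 1.74 ± 0.30 towards flower buds.

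The other called genes of this list were less firm. AT2G38240 differed by 4.56 ± 1.26 and JRG21 by 3.15 ± 1.05 towards flower buds, with root 4 at -3.49 and -2.66 and the other roots at or below -6.24. AT5G05600 differed by -2.12 ± 0.79 (limma adjusted p = 0.0345) towards roots. Its call was lost without root 2 or 4 or without bud 3 or 4, with -1.61 without root 4 and -1.45 without bud 4, and on reference genes (-1.58). The JRG21 call was lost without root 1 or 2 or bud 1 or 2, with differences of 2.51 to 3.04.

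The hormone is perceived by COI1, which directs JAZ repressors to destruction, and JAZ genes are themselves induced by jasmonate. Of 15 genes of this list 2 were called towards flower buds, 6 towards roots and 7 not called, with a median of -0.32. Among all genes tested 29.8% and 25.3% were called in these directions. JAZ9 (2.92 ± 0.47) and JAZ10 (2.60 ± 0.60) were the ones higher in flower buds. JAZ4 (-4.82 ± 0.17), JAZ1 (-2.70 ± 0.46) and JAZ3 (-2.11 ± 0.15) differed most towards roots. JAZ1 had levels of 1.56, 1.88, 2.67 and 3.64 on roots 1 to 4 and of 0.30, -0.09, -0.41 and -0.85 on buds 1 to 4, so it was again highest in root 4 and lowest in bud 4.

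Transcription factors of the response included genes of both kinds. Of 13 genes 5 were called towards flower buds, 4 towards roots and 4 not called, where 29.8% and 25.3% of all genes tested were called. MYB21, MYB57 and MYB24, which act in stamens downstream of jasmonate, were detected on no root array and were at least 166-fold, 78.1-fold and 19.4-fold higher in flower buds. ORA59 (-6.20 ± 0.24) and ERF1 (-3.64 ± 0.47), ethylene and jasmonate factors of defence, and MYC2 (-1.60 ± 0.21), the central bHLH factor of the response, were higher in roots. The stamen and pollen markers given above moved with the MYB genes, and their part in these differences was not tested.

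Response genes were called higher in flower buds in 5 of 5 tested cases, and the sixth, the defensin gene PDF1.2, was detected in 3 of 4 flower buds and in no root and was not tested. THI2.1, a thionin gene, was at least 798-fold higher, CORI3, a cystine lyase gene, at least 102-fold higher, and CLH1, a chlorophyllase gene, differed by 10.53 ± 0.39 with detection in 1 of 4 roots. The vegetative storage protein genes VSP1 (5.55 ± 0.10) and VSP2 (5.36 ± 0.12), named after their values were seen, were detected on all 8 arrays. Of all tested genes 29.8% were called in this direction, as were all 8 green tissue markers, whose part in these differences was not tested.

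Genes listed as regulators upstream of LOX2 or DAD1 were called higher in flower buds in 5 of 8 cases, and 3 were not called. AG, the floral MADS-box factor that activates DAD1 in stamens, was at least 139-fold higher. TCP10, of the family whose member TCP4 activates LOX2, differed by 3.34 ± 0.17, and ARF8, an auxin response factor needed for jasmonate in flowers, by 2.86 ± 0.12. Over the 9 lists together 76 of 80 genes were tested, of which 36.8% were called higher in flower buds, 26.3% higher in roots and the rest not called. Those shares lie near the 29.8% and 25.3% of all genes, and the median difference was 0.15.

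For each tested member the genes with the most similar profile were found by the root mean square difference over the 8 arrays, each profile being centred on its mean. LOX2 was closest to MLP423, a major latex protein-like gene (0.37 log2 units), and to TGG1, a myrosinase gene (0.49). AOS was closest to WRKY22 (0.15), a transcription factor gene, and NUDT17 (0.16), and LOX5 to UDG4 (0.10) and AT3G57280 (0.11). LOX3 was closest to AT1G69523 (0.35) and AT4G00350 (0.36), and LOX4 to AT1G54575 (0.33) and AT5G44440 (0.36). LOX1 was closest to AT4G11910 and AT1G74450 (0.26 each), LOX6 to AT2G44020 and EML2 (0.07 each) and OPR3 to AT4G31330 and DHS2 (0.10 each). No other member was among these nearest genes of any member.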

How the data were processed

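The authors' scanner files were made, per the file headers, with Agilent Feature Extraction 10.10.1.1, which gave a background-subtracted spot intensity on a linear scale for each of 62976 features, with flags for spots well above background and outliers. Total RNA was labelled with Cy3, 1 colour, per the labels. How the log2 values of the deposited value table were made is not given in the sources. Its columns followed the log2 signal of the scanner files centred on each probe's median over the arrays (correlation at least 0.9993 per array). A shift of a whole column leaves that correlation unchanged, so it cannot show which scaling was used. The column medians were -0.0098, 0.0957, 0.0908 and 0.0263 for the roots and -0.0084, -0.0559, -0.0417 and -0.0592 for the flower buds, in replicate order. The deposited table served as an alternative.

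Control spots and 6 to 191 outlier spots per array were left out, and none was saturated. Lines repeated at the end of 6 files were identical copies and were dropped. From the intensity, log2 minus the 75th percentile of each array was taken, and spots of a probe were averaged. A probe counted as detected where more than 50% of its spots were flagged as well above background. Of 43603 probes 34285 matched 1 locus through RefSeq's gene table (assembly TAIR10.1, used for names only) and 9318 matched none. Loci were fitted with limma 3.58.1 in R 4.3.3 (lmFit, eBayes, tissue as the factor), and p-values were adjusted by Benjamini-Hochberg over all genes tested. The fit was tested on simulated data. Intervals of probe ratios used the pooled SD of both tissues. Precision is limited by the number of arrays, and p-values measure the spread between replicate arrays of a tissue. That spread can hold labelling and hybridization as well as differences between plants.

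The members and the gene lists were chosen with earlier results of these data known, so their counts are descriptions. Named beside the members are, per list, the 3 called genes with the largest difference or bound in each direction, the uncalled genes of lists of 6 or fewer, and the 2 nearest profiles of each member, with AOC4, VSP1 and VSP2 added after their values were seen. Alternatives were other scalings, filters and probes, the deposited table, leaving out each array, a replicate block, and normexp with an offset of 50. The last used median spot signals, since mean signals were not used here. Probe and gene sequences were not used here.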

Additional observations from a re-analysis of the deposited data

Results flagged for a closer look

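A replicate was marked where its distance to the nearest other array of the tissue took up more than Dixon's 95% critical share of the range. Of 104 groups of 4 arrays from 52 genes, 8 were marked, and chance marks about 1 in 20 groups. The genes are not independent, since they share the arrays.

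Root replicate 4 was the array far above the others for 3 genes. LOX3 stood at -4.21 there, against -6.50 to -6.30 on the other roots. Its other probes, detected on no root array, were not highest there. CYP94B3, of jasmonate catabolism, stood at 0.35, against -2.75 to -2.41, and AT5G05600 at 1.47, against -0.75 to -0.48. Flower bud replicate 4 was the low array for LOX1 at -0.30, against 0.69 to 0.81, and for AOC2 at -5.88, against -5.11 to -5.01. Flower bud replicate 3 was the low array for FAD3 at 2.03, for ERF1 at -4.95 and for CORI3 at -0.16.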

How the results depend on the processing

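For the 8 tested members, 138 of 141 alternative values kept direction and call. LOX4 lost its call under normexp (0.75), and LOX5 lost its call on the reference genes (-0.87) and on the 8 of them above background (-0.96), the latter chosen after seeing the data. With either reference scaling 1 member was called higher in roots. On the reference genes LOX6 and OPR3 stayed under 2-fold with limma adjusted p-values of 0.0031 and 0.0018. Reference scaling moved the median of all genes from 0.12 to 0.66 (0.57 with 8 genes) and the share of calls higher in flower buds from 54.1% to 68.2% (66.0%). With centring on medians that share was 50.5%, under normexp 48.6%, without a dim filter 48.7% and with genes well above background on all 8 arrays 46.2%. In that last set LOX2, LOX3 and LOX4 were not tested and 0 members were called higher in flower buds by limma.

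Leaving out each array gave 0.40 to 1.27 for LOX1 over LOX5, 5.37 to 6.90 for LOX2 over LOX3, 9.15 to 10.57 for LOX2 over LOX4 and 11.35 to 12.29 for LOX2 over LOX6. With the mean over all probes of a locus the changes were smaller, at 4.12 for LOX2 over LOX3, 6.99 for LOX2 over LOX4, 8.73 for LOX2 over LOX6 and 2.87 for LOX3 over LOX4 (3.35 under normexp), against 6.28, 10.03, 11.77 and 3.75 as measured on 1 probe per gene. These sizes rest on dim root signal. Same-numbered arrays deviated with correlations of -0.27, 0.04, -0.01 and 0.10. These values cannot show whether same-numbered arrays shared plants or a batch. A replicate block called 12176 genes against 12219, with 5 members called as before, and ended the calls of JRG21 (limma adjusted p = 0.0531) and AT5G05600 (0.0947). For the named pathway genes 731 of 760 alternative values kept direction and call, 19 lost the call and 6 gained it. In the other 4, all of uncalled genes, the sign turned: FAD2 with quantile normalization (0.02), on reference genes (0.45) and on 8 of them (0.35), and DALL1 on reference genes (0.08). Of 342 list counts 18 moved by over 1.5 times, among them the other synthesis genes higher in flower buds, 3 as reported, 5 on reference genes and 0 with the filter on all 8 arrays. Dim signal limits the root values of LOX2, LOX3 and LOX4 and all values of DAD1.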
